A study of Mus musculus with 19 samples.

Results

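Pparg encodes PPARγ, the nuclear receptor best known as the master regulator of adipocyte formation, and its RNA was almost absent from Stra8-deficient mouse germ cells and abundant in cells that had begun meiosis. Its level is described here together with the other PPAR genes (Ppara and Ppard) and with the genes of the retinoid X receptors (Rxra, Rxrb and Rxrg), which are the partners that PPARs need to bind DNA. These 6 genes, 3 PPARs and 3 RXRs, were taken by symbol from the 22419 genes of the expression tables. Pparg was chosen by its measured RNA level, which rises with STRA8, and by its ChIP score, so that both are given as a description with no test, while the other members were read from a fit over all genes.

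PPARs are ligand-activated transcription factors that bind fatty acids and their derivatives. Each PPAR pairs with an RXR on DNA elements near genes of lipid uptake, storage and oxidation, and the pair exchanges corepressors for coactivators when a ligand binds. PPARα is known for fatty acid oxidation, PPARδ for fatty acid use in many tissues and PPARγ for fat storage. RXRs also pair with the retinoic acid receptors, and retinoic acid is the signal that induces Stra8 and meiosis in the testis.

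RNA-seq measured preleptotene spermatocytes, the germ cells that initiate meiosis, sorted from C57BL/6 mice that carried Ddx4-Cre, active in germ cells, and a Rosa26 tdTomato reporter. Mice received WIN18,446, an inhibitor of retinoic acid synthesis, from postnatal day 2 to 8 and retinoic acid on day 9, and testes were taken about 6.75 days later. Libraries came from 3 Stra8-deficient samples, which carry the knock-out allele on both chromosomes and stop before meiosis, and from 2 low-STRA8 and 2 high-STRA8 samples, both Stra8 heterozygous and told apart by STRA8 staining of the testis. FLAG ChIP-seq of unsorted testes from mice of largely C57BL/6 background on the same schedule, homozygous for FLAG-tagged Stra8 (Stra8 FLAG/FLAG) or wild-type, gave 3 libraries of each genotype, and replicate 3 of both genotypes was made with another library kit. The FLAG tag marks only the longer STRA8 isoform, and testes hold other cell types beside preleptotene cells.

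Estimated counts summed to between 25049625 and 30015072 per RNA library. Stra8 RNA followed the labels, at 5.16 to 22.8 TPM (a level corrected for transcript length and library size) in Stra8-deficient cells, 236 to 315 TPM in low-STRA8 cells and 1099 to 1248 TPM in high-STRA8 cells. Germ cell markers were high in every library, with all 8 over 1 TPM. The Sertoli cell markers were also present, with all 12 over 1 TPM and a summed level of 642 to 891 TPM in 6 libraries. In low-STRA8 replicate 2 they summed to 196 TPM, with Fshr at 0.638 TPM. Markers of undifferentiated spermatogonia summed to 82.5 to 101 TPM in Stra8-deficient cells, 36.9 to 41.4 TPM in low-STRA8 cells and 42.0 to 45.3 TPM in high-STRA8 cells. Macrophage markers summed to 36.7 TPM in Stra8-deficient replicate 3 and to 5.47 TPM or less elsewhere. In bulk libraries, fewer cells of a type and less RNA per cell cannot be told apart, and with 2 or 3 libraries a group the p-values measure the spread between these samples.

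Pparg has the identifier ENSMUSG00000000440 and lies on the forward strand of mm10 at chr6:115360951-115490399. STRA8 bound its promoter at one of the highest scores in each FLAG/FLAG library. The summits, the points of highest signal in a peak, lay within 49 bp of each other, at 295, 319 and 344 bp downstream of the start site of the transcript Pparg-202, in FLAG/FLAG replicates 1, 2 and 3. All 3 summits fell inside exon 1 of Pparg-202, an exon of 420 bp. No wild-type library had a summit within 1 kb of a Pparg start site.

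The study derived the motif CNCCTCAG from peaks of these same FLAG/FLAG libraries, at promoters of genes it found bound and upregulated, Pparg included. Its matches at Pparg are therefore not independent of the peaks, and their numbers and shares are a description. CNCCTCAG was searched here on both strands (CTGAGGNG on the other strand). Within 1 kb on either side of the Pparg-202 start site it matched at 8 places, of which 1 was on the forward and 7 on the reverse strand. At least 1 match was found at 43.0% of 21794 protein-coding genes, and as many as 8 at 6 genes (0.0275%), Pparg included. The 30 bases around each match are shown, because they lie under and beside the 3 summits. Each is read from the GRCm38.p6 assembly, which has the coordinates of mm10, 5′ to 3′ on the strand of the match, and capitals mark the motif.
Match 1, 159 bp from the start site, forward strand, chr6:115361099-115361128: cgccaagccgcCGCCTCAGgtcagagtcgc
Match 2, 257 bp, reverse strand, chr6:115361197-115361226: tcacactcggtCCCCTCAGgctgcgcgcga
Match 3, 292 bp, reverse strand, chr6:115361232-115361261: cctcagcccgtCCCCTCAGcccggtcacct
Match 4, 305 bp, reverse strand, chr6:115361245-115361274: gagtgtgacttCTCCTCAGcccgtcccctc
Match 5, 480 bp, reverse strand, chr6:115361420-115361449: tcatcccgagtCCCCTCAGcggagacccag
Match 6, 634 bp, reverse strand, chr6:115361574-115361603: gagtttgccttCTCCTCAGccggggtccct
Match 7, 696 bp, reverse strand, chr6:115361636-115361665: gcccgcgcgatCCCCTCAGacccagactct
Match 8, 714 bp, reverse strand, chr6:115361654-115361683: ttgtgtgacttCTCCTCAGcccgcgcgatc

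Matches 1 to 4 lie in exon 1 of Pparg-202 and matches 5 to 8 in its intron 1. The closest pairs start 13 bp apart (matches 3 and 4) and 18 bp apart (matches 7 and 8), so that the printed stretches of each pair overlap. The summit of FLAG/FLAG replicate 1 fell inside match 3. Those of replicates 2 and 3 lay 7 and 32 bp from the nearest match, which is match 4. In the 100 bp around the summit there were 3, 2 and 1 matches in replicates 1, 2 and 3. Among all summits of the same libraries, 0.299%, 1.79% and 15.7% had at least as many.

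The summit score is the -log10 p that the peak caller gave. At Pparg it was 248 in FLAG/FLAG replicate 1, 170 in replicate 2 and 207 in replicate 3. This was the fifth highest of 5687, of 3299 and of 2035 summits in the respective libraries, also in replicate 3 with its other library kit. The median scores over all summits were 14.4, 13.5 and 13.98.

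**Figure D1:**
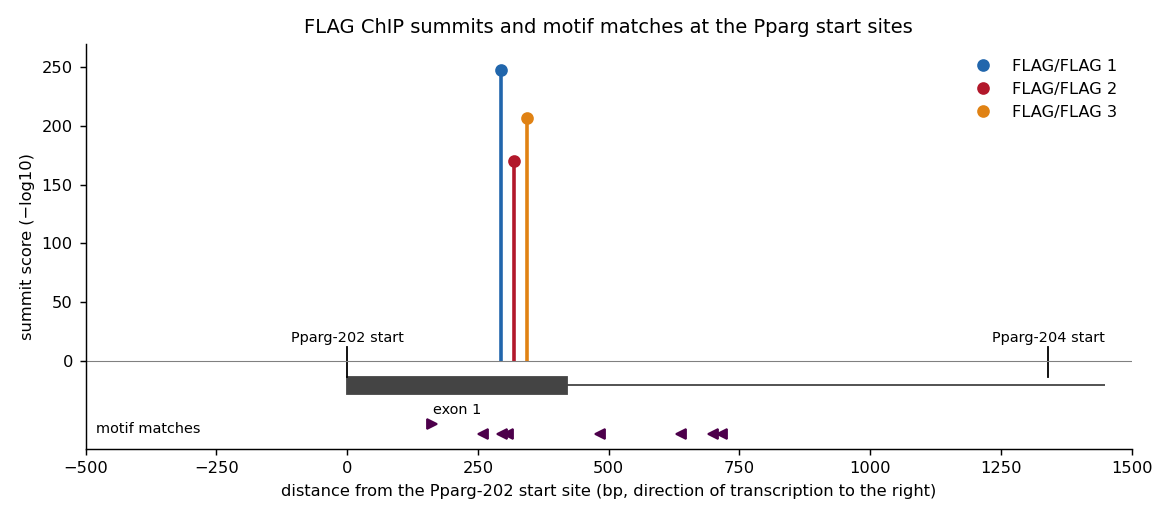
FLAG ChIP summits of the 3 FLAG/FLAG libraries (stems, height is the score, -log10 p) against the distance in bp from the Pparg-202 start site, with exon 1 (box), the Pparg-204 start site and the 8 motif matches (arrowheads, pointing left for the reverse strand). The summits sit at 295, 319 and 344 bp with scores of 248, 170 and 207, beside matches 3 and 4.

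Of the 6 genes, 2 were STRA8-bound, meaning a summit within 1 kb of a start site in at least 2 of 3 FLAG/FLAG libraries and none in wild-type: Pparg and Rxrb. Of all 22419 genes in the expression tables, 12.5% were bound, and of the 12505 genes tested for expression, 22.2%. Rxrb had summits in all 3 FLAG/FLAG libraries, with scores of 11.9, 14.6 and 6.52 at 120 bp upstream, 180 bp downstream and 92 bp downstream of the Rxrb-201 start site. These scores ranked 3609 of 5687, 1427 of 3299 and 2007 of 2035. The Rxrb promoter held no CNCCTCAG match, and it is shared with Slc39a7, a zinc transporter gene that starts on the opposite strand, so that the summits cannot be assigned to 1 of the genes.

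Ppard had a summit in FLAG/FLAG replicate 1 alone, 96 bp upstream of its start site, with a score of 8.03 that ranked 5317 of 5687. No match lay within the 100 bp around that summit. Its matches in the 2 kb window, 2 in number, lay downstream of the start site on the reverse strand. Ppara (1 match), Rxrg (no match) and Rxra had no summit within 1 kb of a start site in any FLAG/FLAG library. Rxra had 1 match upstream of the start site of Rxra-201, the transcript with nearly all its counts, and 2 downstream of that of Rxra-203, a transcript with 0 counts in every library. At least 2 matches were found at 12.01% of genes.

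Pparg RNA was at 0.101, 0 and 0.141 TPM in the 3 Stra8-deficient libraries, at 5.46 and 1.16 TPM in the low-STRA8 libraries and at 33.4 and 42.0 TPM in the high-STRA8 libraries. The estimated counts behind these levels were 2, 0 and 3, then 132 and 26, then 752 and 884. The Stra8-deficient libraries were thus at or below the limit of 3 counts that a count of 0 allows, the groups did not overlap, and every high-STRA8 library stood above every other library.

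Relative to the total counts of the libraries, the summed counts of high-STRA8 cells (1636) were 497-fold those of Stra8-deficient cells (5), with an exact 95% interval of 213 to 1534 that covers counting error only. Low-STRA8 cells (158 counts) stood 52.6-fold above Stra8-deficient cells (22.1 to 164), and high-STRA8 cells 9.46-fold above low-STRA8 cells (8.03 to 11.2). The low-STRA8 libraries differed 4.71-fold from each other in TPM and the high-STRA8 libraries 1.26-fold. Without low-STRA8 replicate 1 the fitted log2 fold change of high-STRA8 against low-STRA8 cells was 4.91, and without replicate 2 it was 2.71, around 3.42 with both. The fitted log2 fold change of low-STRA8 against Stra8-deficient cells was 5.58, and it was 4.08 and 6.29 without low-STRA8 replicate 1 and 2 and 6.27 without Stra8-deficient replicate 3. That of high-STRA8 against Stra8-deficient cells was 8.99, and 9.69 without Stra8-deficient replicate 3. With a library left out it ran from 8.41 to 9.69. Over all alternative fits it ran from 5.16 to 9.87, and that of low-STRA8 against Stra8-deficient cells from 1.79 to 6.29. The comparisons share samples, since high-STRA8 libraries enter the first and the last of them and Stra8-deficient libraries the first and the second.

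Low-STRA8 replicate 2, the library with the lower Pparg level in its group, was also the library with the lowest summed Sertoli marker level. The part of Sertoli cells in the difference was not tested. Stra8-deficient libraries held 642 to 862 TPM of Sertoli markers with Pparg at 0.141 TPM or less. Adipocyte markers summed to 15.4 and 15.9 TPM in high-STRA8 cells and to 2.96 to 9.82 TPM in the other libraries. Their part in the Pparg level was not tested. Of 10 adipocyte markers, Cidea alone was over 1 TPM, at 14.7 and 14.9 TPM in high-STRA8 cells and 2.26 to 9.0 TPM in the other libraries. Adipoq, which encodes the hormone adiponectin, and Lep, which encodes leptin, were at 0 in both high-STRA8 libraries. Macrophages can also express Pparg, and the macrophage markers summed to 4.66 and 5.47 TPM in high-STRA8 cells. They summed to 2.61 to 36.7 TPM in Stra8-deficient cells and 2.50 to 5.28 TPM in low-STRA8 cells. Of the 12 macrophage markers, only Mrc1 was over 1 TPM in high-STRA8 cells, at 2.88 and 3.22 TPM, against 0.677 to 2.07 TPM in the other libraries. The part of macrophages in the Pparg level was not tested. Markers of pachytene and later germ cells summed to 20.9 to 23.0 TPM, 25.8 and 23.7 TPM and 45.0 and 43.3 TPM in the 3 groups, with only Piwil1 and Hspa2 of 12 over 1 TPM in high-STRA8 cells, and their part in the Pparg level was not tested. Those of Leydig cells (7.02 to 33.6 TPM) and of peritubular and endothelial cells (51.2 to 91.0 TPM) were not highest in high-STRA8 cells, and their part in the Pparg level was not tested either.

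**Figure D2:**
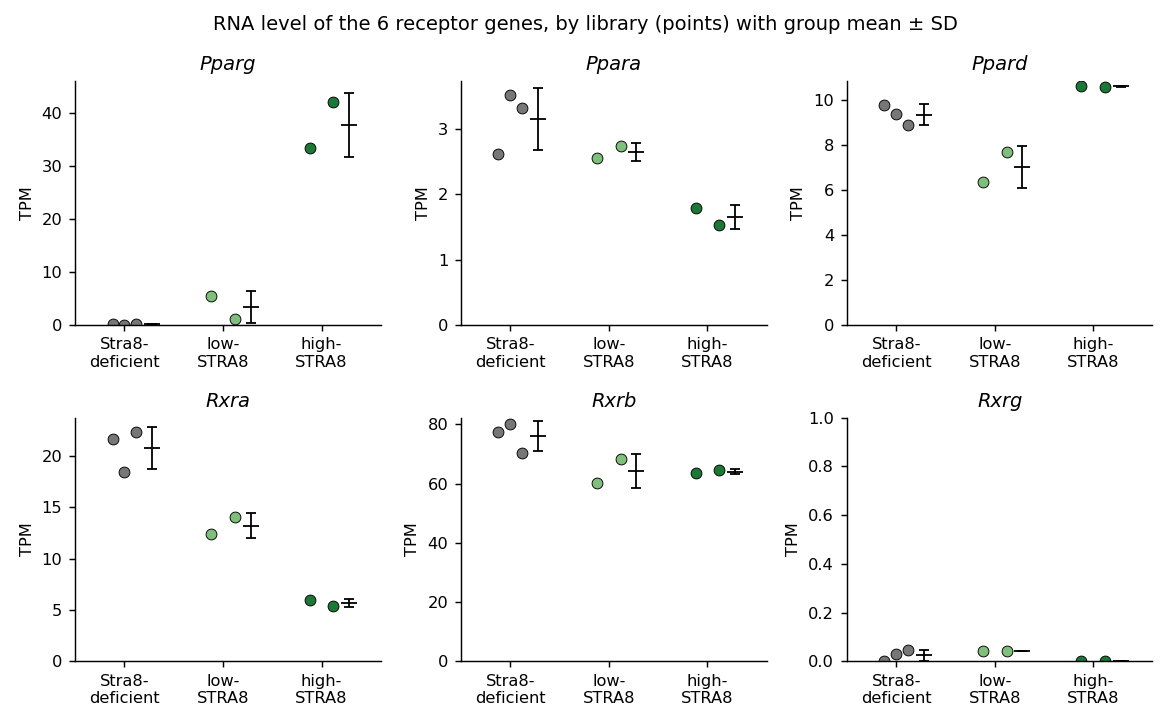
RNA level (TPM, linear axes from 0 that differ between panels) of the 6 genes in each of the 7 libraries (points), with the mean ± SD of each group beside them (n = 3 Stra8-deficient, 2 low-STRA8, 2 high-STRA8). Pparg sits at or near 0 in Stra8-deficient cells and at 33.4 and 42.0 TPM in high-STRA8 cells, whereas Rxra falls from 18.4 to 22.3 TPM to 5.39 and 5.96 TPM.

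Pparg has 3 annotated protein-coding transcripts in the authors' tables. Pparg-202 starts at the bound promoter, Pparg-204 starts 1341 bp downstream of it and Pparg-201 starts far inside the gene. Measured from the Pparg-204 start site, the summits lay at -1046, -1022 and -997 bp, and from that of Pparg-201 at -60820, -60796 and -60771 bp, negative distances being upstream. In high-STRA8 cells, Pparg-202 held 36.1% and 39.2% of the gene's TPM in replicates 1 and 2. Pparg-204 held 63.5% and 31.1%, and Pparg-201 held 0.353% and 29.7%.

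The share of Pparg-202 thus differed little between the high-STRA8 libraries, while those of the other transcripts differed widely. In estimated counts, Pparg-201 had 2.32 in high-STRA8 replicate 1 and 229.7 in replicate 2, although the gene as a whole had 752 and 884. In low-STRA8 cells Pparg-202 held 41.8% and 27.4% and Pparg-201 held 53.3% and 72.6%, on 132 and 26 counts of the gene. kallisto divides reads among transcripts that share exons, so these shares are estimates whose error is not known from the tables.

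**Figure D3:**
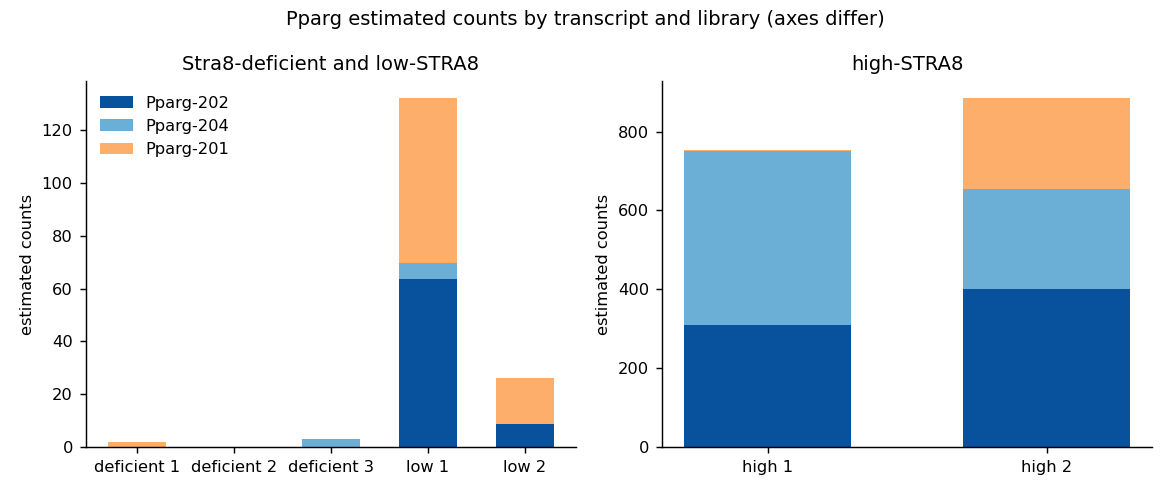
Estimated counts of Pparg in each library, stacked by transcript (left, Stra8-deficient and low-STRA8; right, high-STRA8, on a larger axis). The Pparg-202 part reaches 310 and 399 counts in the high-STRA8 libraries, and the Pparg-201 part is 2.32 in one and 229.7 in the other.

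Ppara and Ppard, the other PPAR genes, were expressed in all groups. Ppara (ENSMUSG00000022383, chr15:85734983-85802819) was at 2.62, 3.53 and 3.32 TPM in Stra8-deficient cells, 2.55 and 2.75 TPM in low-STRA8 cells and 1.79 and 1.52 TPM in high-STRA8 cells. The high-STRA8 libraries were the lowest and did not overlap with either group. The log2 difference did not pass the test, at -0.63 ± 0.27 (SE) against Stra8-deficient cells (edgeR quasi-likelihood test, Benjamini-Hochberg adjusted p = 0.102, 95% interval -1.24 to -0.012) and -0.61 ± 0.29 against low-STRA8 cells (adjusted p = 0.131, -1.27 to 0.060). On log2(TPM + 1), limma called the former (-0.64, adjusted p = 0.0203). The high-STRA8 libraries held 61.5 and 54.9 estimated counts of Ppara.

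Ppard (ENSMUSG00000002250, chr17:28232700-28301474) was at 9.79, 9.39 and 8.89 TPM in Stra8-deficient cells, 6.36 and 7.69 TPM in low-STRA8 cells and 10.6 and 10.6 TPM in high-STRA8 cells. The low-STRA8 libraries were the lowest and the high-STRA8 libraries the highest, with no overlap. Ppard rose from low-STRA8 to high-STRA8 cells by 0.48 ± 0.16 on the log2 scale (edgeR adjusted p = 0.0438). That call was lost when DESeq2 was used (adjusted p = 0.0504), with the replicate numbers as a block (0.0790), without the filter on low values (0.0830) and when any library but low-STRA8 replicate 2 was left out (0.0592 to 0.193). limma kept it (0.0224). Between high-STRA8 and Stra8-deficient cells the difference was 0.27 ± 0.15 (adjusted p = 0.177, interval -0.060 to 0.61).

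Summed over the family, PPAR RNA stood at 12.4 to 12.9 TPM in Stra8-deficient cells, 14.4 and 11.6 TPM in low-STRA8 cells and 45.9 and 54.2 TPM in high-STRA8 cells. Ppard supplied 72.0% to 78.2% of it in Stra8-deficient cells and Pparg 1.14% or less. In high-STRA8 cells Pparg supplied 72.9% and 77.6%, Ppard 23.1% and 19.6% and Ppara 3.9% and 2.81%. In low-STRA8 cells Pparg supplied 38.0% in replicate 1 and 10.01% in replicate 2. Since Pparg was chosen for its rise, this change of the leading PPAR gene is a description.

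**Figure D4:**
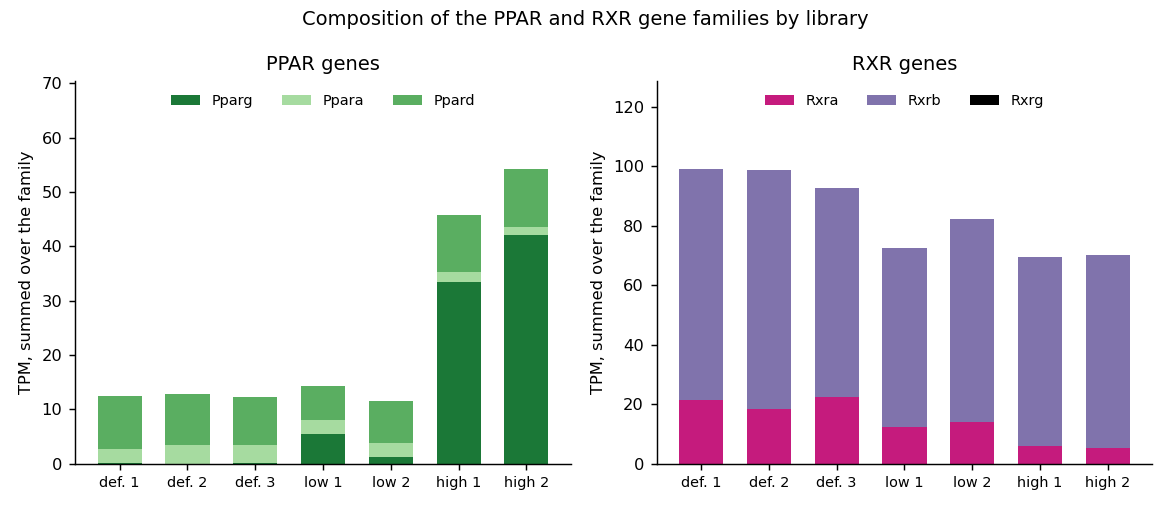
TPM of the PPAR genes (left) and RXR genes (right) in each library, stacked by gene, with "def." for Stra8-deficient. The PPAR sum goes from 12.4 to 12.9 TPM, mostly Ppard, to 45.9 and 54.2 TPM, mostly Pparg, and the RXR sum from 92.7 to 99.0 TPM to 69.4 and 70.1 TPM, with a smaller part of Rxra.

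Rxra, whose product is the RXR with which PPARγ is most often found paired in fat tissue, fell with STRA8. Rxra (ENSMUSG00000015846, chr2:27676440-27762957) was at 21.6, 18.4 and 22.3 TPM in Stra8-deficient cells, 12.4 and 14.1 TPM in low-STRA8 cells and 5.96 and 5.39 TPM in high-STRA8 cells. The 3 groups did not overlap, and the order was the reverse of that of Pparg. The log2 fold change was -1.77 ± 0.15 between high-STRA8 and Stra8-deficient cells (edgeR adjusted p = 0.000107), a level 3.41-fold lower. Between high-STRA8 and low-STRA8 cells it was -1.33 ± 0.15 (adjusted p = 0.000894), or 2.51-fold lower. Both calls held under every alternative tried.

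Between low-STRA8 and Stra8-deficient cells the fall was smaller, at -0.44 ± 0.14 on the log2 scale (edgeR adjusted p = 0.0490). That call was lost under most alternatives, among them the replicate block (adjusted p = 0.145), no filter on low values (0.0698), DESeq2's size factors (0.0535) and each library left out but low-STRA8 replicate 2 (0.0508 to 0.200). DESeq2 (0.0312) and limma (0.0147) kept it. Rxra had no STRA8 summit at a promoter. Nearly all of its counts lay on Rxra-201, which held 96.5% or more of the gene's TPM in each library. Markers of undifferentiated spermatogonia were also higher in Stra8-deficient cells than in the other groups, by the sums given above. Their part in the fall of Rxra was not tested.

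Rxrb (ENSMUSG00000039656, chr17:34031812-34038399) was the most abundant of the 6 genes in every library. It stood at 77.4, 80.3 and 70.4 TPM in Stra8-deficient cells, 60.2 and 68.3 TPM in low-STRA8 cells and 63.4 and 64.7 TPM in high-STRA8 cells. The Stra8-deficient libraries were the highest, and the low-STRA8 and high-STRA8 libraries overlapped. No difference passed the test: the log2 fold change was -0.15 ± 0.10 between high-STRA8 and Stra8-deficient cells (edgeR adjusted p = 0.293, interval -0.39 to 0.088) and -0.13 ± 0.11 between high-STRA8 and low-STRA8 cells (adjusted p = 0.397, interval -0.39 to 0.13). Slc39a7, which shares its bound promoter, fell by 0.53 ± 0.10 on the log2 scale in high-STRA8 against Stra8-deficient cells (adjusted p = 0.00424).

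Rxrg (ENSMUSG00000015843, chr1:167598384-167639623), known from muscle and brain, had at most 1.01 estimated counts in any library. Its TPM was 0.0453 or less, so that it was not tested and a level below the limit of 3 counts per library was not detectable at this depth. Rxrb supplied 75.9% to 81.3% of RXR RNA in Stra8-deficient cells, 82.8% and 82.9% in low-STRA8 cells and 91.4% and 92.3% in high-STRA8 cells, and Rxra supplied most of the remainder. In order of level, Stra8-deficient cells had Rxrb, Rxra, Ppard, Ppara and then Pparg and Rxrg near 0. In low-STRA8 cells the order was Rxrb, Rxra and Ppard, and Pparg and Ppara overlapped below them. High-STRA8 cells had Rxrb, Pparg, Ppard, Rxra, Ppara and then Rxrg at 0, with no overlap between neighbours.

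Beside Pparg, 4 members passed the filter of 1 TPM and were tested. Between high-STRA8 and Stra8-deficient cells 1 of 4 was called (Rxra, lower), where 37.1% of all genes were called in either direction. Between high-STRA8 and low-STRA8 cells 2 of 4 were called (Rxra, lower, and Ppard, higher), where 39.7% of genes were called. Between low-STRA8 and Stra8-deficient cells 1 of 4 was called (Rxra, lower), where 24.0% of genes were called. These shares are from so few genes that nothing is read from them.

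**Figure D5:**
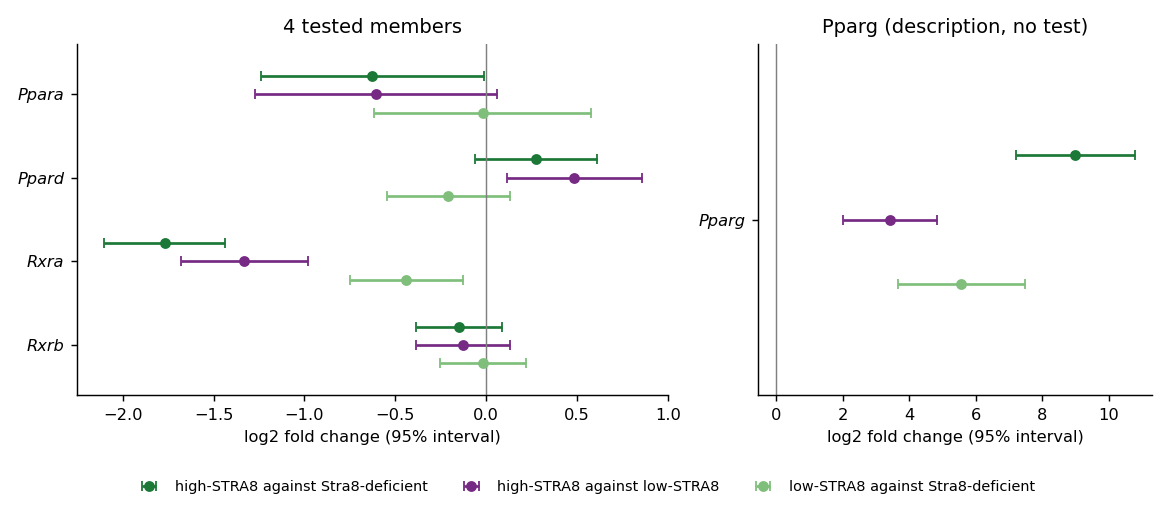
Log2 fold change with its 95% interval (edgeR fit of all 7 libraries) of the 4 tested members (left) and of Pparg (right, on a wider axis) in the 3 comparisons. Rxra lies below 0 in all 3, at -1.77, -1.33 and -0.44, the Rxrb intervals all cover 0, and the Pparg estimates against Stra8-deficient cells depend on the small count added by the fit because those libraries hold 2, 0 and 3 counts.

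Other receptors that pair with RXRs were considered next, from a list of 14 genes, of which 7 were over 1 TPM and tested. Between high-STRA8 and Stra8-deficient cells, 0 rose and 3 fell (edgeR, adjusted p under 0.05, and the same numbers at an unadjusted p under 0.05, by DESeq2 and by limma), and the median log2 fold change was -0.34, against -0.017 over all genes. Of all genes tested, 18.8% were called higher and 18.3% lower. Rara, the gene of retinoic acid receptor α, went from 33.4, 36.5 and 36.0 TPM to 23.1 and 22.1 TPM, or -0.51 on the log2 scale (adjusted p = 0.0105). The log2 fold change was -0.98 for Thra, a thyroid hormone receptor gene (adjusted p = 0.0190), and -1.83 for Nr4a1, an immediate-early orphan receptor gene (adjusted p = 0.00492). Without high-STRA8 replicate 1 or 2, 1 of the 3 calls was left.

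Rarg, the retinoic acid receptor gene with the highest level, was at 87.1 to 120 TPM in Stra8-deficient cells, 48.3 and 74.7 TPM in low-STRA8 cells and 76.9 and 86.3 TPM in high-STRA8 cells. Its difference between high-STRA8 and Stra8-deficient cells did not pass the test (log2 fold change -0.34, adjusted p = 0.219). Vdr and Nr1h3, the genes of the vitamin D receptor and of LXRα, had log2 fold changes of 0.81 (adjusted p = 0.176) and 0.10 (adjusted p = 0.829). Between high-STRA8 and low-STRA8 cells 0 of the 7 passed the edgeR test, at an unadjusted p under 0.05 as well, and 0 passed by DESeq2 or limma, whereas leaving out low-STRA8 replicate 1 or 2 gave 1 and 2 calls. Between low-STRA8 and Stra8-deficient cells 0 rose and 2 fell by edgeR (3 fell at an unadjusted p under 0.05, by DESeq2 and by limma), with a median of -0.54, and the median between high-STRA8 and low-STRA8 cells was 0.20. Rara (-0.58, edgeR adjusted p = 0.0117) and Nr4a1 (-1.86, adjusted p = 0.00934) were the genes lower in low-STRA8 than in Stra8-deficient cells. In that comparison 10.1% of all genes were called higher and 13.9% lower, and 21.4% and 18.3% in high-STRA8 against low-STRA8 cells. STRA8 bound 0 of the 7 genes, against 22.2% of all genes tested.

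A wider list held 43 nuclear receptor genes outside the PPAR and RXR families, the 14 RXR partners included. Of these 24 were tested, and between high-STRA8 and Stra8-deficient cells 2 rose (18.8% of all genes) and 6 fell (18.3%), 3 of the latter being Rara, Thra and Nr4a1. Both that rose were STRA8-bound: Nr1d2 (REV-ERBβ, a repressor of the circadian clock), at 0.80 on the log2 scale (adjusted p = 0.0122), and Nr2c2 (the orphan receptor TR4), with 0.92 (adjusted p = 0.00528). The other bound genes of the list, named here for their binding, were Nr2f6, called lower, and Nr3c1 and Nr6a1, not called in this comparison. The log2 fold change was -1.34 for Nr1d1 (REV-ERBα, adjusted p = 0.00203) and -1.56 for Nr3c2, the mineralocorticoid receptor gene (adjusted p = 0.00269). The 8 calls became 4 without high-STRA8 replicate 1 and 5 without replicate 2. Both Nr1d2 (0.88, adjusted p = 0.0138) and Nr2c2 (1.03, adjusted p = 0.00583) were also higher in high-STRA8 than in low-STRA8 cells, where 2 rose and 1 fell. That count of 3 was 8 and 6 without low-STRA8 replicate 1 and 2, and 1 without high-STRA8 replicate 2. In low-STRA8 against Stra8-deficient cells 0 rose and 4 fell by edgeR (0 and 7 at an unadjusted p under 0.05, 0 and 6 by DESeq2, 0 and 5 by limma), and 7 were called without low-STRA8 replicate 2. Over all genes, 21.4% were called higher and 18.3% lower in high-STRA8 against low-STRA8 cells. The shares were 10.1% and 13.9% in low-STRA8 against Stra8-deficient cells. The medians of the list in the 3 comparisons were -0.081, 0.16 and -0.18, and 5 of the 24 genes (20.8%) were STRA8-bound, against 22.2% of all genes tested.

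Coregulators of PPARs and RXRs were mostly expressed, with 24 of 26 over 1 TPM. The PGC-1 coactivator genes Ppargc1a and Ppargc1b, named after their values were seen, were the exceptions, at 0.243 TPM or less in every library. Between high-STRA8 and Stra8-deficient cells 3 rose and 3 fell, with a median log2 fold change of -0.046. Over all genes, 18.8% were called higher and 18.3% lower. These list counts are by edgeR. The 6 calls became 3 without high-STRA8 replicate 1. DESeq2 gave 3 higher and 5 lower, and limma 3 higher and 7 lower. Ncoa3, a steroid receptor coactivator gene, was at 38.2 to 44.8 TPM in Stra8-deficient cells, 34.5 and 32.6 TPM in low-STRA8 cells and 86.5 and 90.8 TPM in high-STRA8 cells, with a log2 fold change of 1.19 against Stra8-deficient cells (adjusted p = 8.42e-05) and 1.27 against low-STRA8 cells (adjusted p = 0.000459). Sirt1, a deacetylase gene that restrains PPARγ in fat, rose by 0.87 on the log2 scale (adjusted p = 0.00224). Both were STRA8-bound, with scores of 32.4 to 43.5 at Ncoa3 and 108 to 112 at Sirt1. The remaining gene that rose, Smarcd3, was not bound. The other bound coregulators, Ep300, Ncor1, Tbl1x and Asxl2, were not called between high-STRA8 and Stra8-deficient cells. Smarcd3, Tbl1x and Asxl2 are named here for their call or their binding.

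Between high-STRA8 and Stra8-deficient cells the log2 fold change was -0.69 for Nrip1, the gene of the corepressor RIP140 (adjusted p = 0.00393). Between low-STRA8 and Stra8-deficient cells 1 rose and 14 fell of 24, with a median of -0.50 against 0.026 for all genes, and between high-STRA8 and low-STRA8 cells 11 rose and 1 fell, with a median of 0.40 against 0.0059. Among them, Ep300, the gene of the acetyltransferase p300, had log2 fold changes of -0.98 between low-STRA8 and Stra8-deficient cells (adjusted p = 0.00447) and 1.12 between high-STRA8 and low-STRA8 cells (adjusted p = 0.00193), and Ncor1 of -1.29 (adjusted p = 0.00266) and 1.05 (adjusted p = 0.00342). The share of all genes called lower between low-STRA8 and Stra8-deficient cells was 13.9%, and that of genes called higher between high-STRA8 and low-STRA8 cells was 21.4%. The 15 calls between low-STRA8 and Stra8-deficient cells became 8 without Stra8-deficient replicate 2 or without low-STRA8 replicate 1, and the 12 between high-STRA8 and low-STRA8 cells became 7 and 6 without high-STRA8 replicate 1 and 2.

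The abundant coregulators Med1, Hdac3 and Gps2, each over 100 TPM in a group, did not pass the test between high-STRA8 and Stra8-deficient cells. Their log2 fold changes were -0.37 for Med1, the Mediator subunit that PPARγ contacts (adjusted p = 0.0540), -0.094 for Hdac3, the deacetylase of the NCOR complexes (adjusted p = 0.450), and 0.23 for Gps2, another subunit of those complexes (adjusted p = 0.108). Of the 24 tested coregulators, 6 (25%) were STRA8-bound, near the 22.2% of all genes tested.

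Targets of PPARs were split into genes of lipid storage and genes of fatty acid oxidation. Of 32 storage genes, 18 were tested, and 5 rose and 4 fell between high-STRA8 and Stra8-deficient cells, with a median log2 fold change of 0.31. The 9 calls became 4 without high-STRA8 replicate 2. The background was 18.8% of all genes called higher and 18.3% called lower. The other 14 were not over 1 TPM in any library. They include classic PPARγ targets of fat cells, named after their values were seen: in the high-STRA8 libraries, Fabp4, a fatty acid binding protein gene, was at 0.138 and 0 TPM, Cd36, a fatty acid transporter gene, at 0.118 and 0 TPM, and Plin1, the lipid droplet gene, at 0.353 and 0.289 TPM, with Pparg at 33.4 and 42.0 TPM.

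The storage genes that rose were led by Slc2a4, the insulin-responsive glucose transporter GLUT4, which went from 2.89 to 3.47 TPM in Stra8-deficient cells to 8.12 and 5.75 TPM in low-STRA8 cells and 12.6 and 12.3 TPM in high-STRA8 cells. Its log2 fold change in high-STRA8 against Stra8-deficient cells was 2.03 (adjusted p = 0.000170), and it was the same to 2 decimals for Gk, the glycerol kinase gene, at 2.03 (adjusted p = 0.000380). Dgat1, which makes triglyceride, rose by 1.03 (adjusted p = 0.000401) and Lipe, the hormone-sensitive lipase gene, by 1.2 (adjusted p = 0.00375). Only these last 2 of the 18 tested genes were STRA8-bound, at scores of 7.33 to 22.04 for Dgat1 and 19.6 to 28.7 for Lipe. The bound share of all genes tested was 22.2%.

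Acsl1, the fatty acyl-CoA synthetase gene, rose by 0.39 (adjusted p = 0.00748), whereas Dgat2, at 134 to 146 TPM in the group means, had a log2 fold change of 0.0054 (adjusted p = 0.974). Hilpda, a lipid droplet gene, had a log2 fold change of -0.59 in high-STRA8 against Stra8-deficient cells (adjusted p = 0.0116) and was highest in low-STRA8 cells, at 0.62 on that scale against Stra8-deficient cells (adjusted p = 0.0148). In high-STRA8 against low-STRA8 cells 5 storage genes rose and 2 fell, with a median of 0.21, and in low-STRA8 against Stra8-deficient cells 3 rose and 0 fell by edgeR (3 and 1 at an unadjusted p under 0.05, 3 and 0 by DESeq2, 2 and 0 by limma), with a median of 0.056. Over all genes, 21.4% were called higher and 18.3% lower in the former comparison, and 10.1% and 13.9% in the latter. The 7 calls of the former became 4 and 3 without high-STRA8 replicate 1 and 2, and the 3 of the latter became 1 without Stra8-deficient replicate 2.

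Of 36 oxidation genes, 26 were tested. In high-STRA8 against Stra8-deficient cells 4 rose and 10 fell, with a median log2 fold change of -0.23, and in high-STRA8 against low-STRA8 cells 2 rose and 12 fell, with a median of -0.25. Genes called lower made up 18.3% of all genes in both comparisons, and genes called higher 18.8% in the former and 21.4% in the latter. The 14 calls of the former became 9 without high-STRA8 replicate 1 or 2, and the 14 of the latter became 7 and 5. Cpt1a, the gene of the gatekeeper of mitochondrial fatty acid import, was at 108 to 128 TPM in Stra8-deficient cells, 70.6 and 76.1 TPM in low-STRA8 cells and 55.4 and 57.3 TPM in high-STRA8 cells. Its log2 fold change was -0.99 in high-STRA8 against Stra8-deficient cells (adjusted p = 0.000295), with no overlap between the 3 groups.

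The log2 fold change was -0.71 for Acadm, the medium-chain acyl-CoA dehydrogenase gene (adjusted p = 0.00142), -0.73 for Eci1 (adjusted p = 0.00747) and -0.83 for Eci2 (adjusted p = 0.00422), the last 2 encoding isomerases that act on unsaturated fatty acids. The genes that rose included Slc22a5, the carnitine transporter gene, from 9.09 to 11.3 TPM in Stra8-deficient cells to 16.05 and 14.9 TPM in low-STRA8 cells and 31.8 and 34.9 TPM in high-STRA8 cells (log2 fold change 1.77, adjusted p = 6.45e-05). Ucp2, an uncoupling protein gene of the inner mitochondrial membrane, rose by 2.20 (adjusted p = 0.000760), Cpt2, which acts after Cpt1a, by 0.56 (adjusted p = 0.00234) and Hadhb, a subunit of the trifunctional protein, by 0.57 (adjusted p = 0.00228). Slc22a5 and Ucp2 were the 2 STRA8-bound genes among the 26, with scores of 26.0 to 58.3 and 7.89 to 29.3. The bound share of all genes tested was 22.2%.

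Hadha, the partner subunit of Hadhb, had a log2 fold change of 0.049 (adjusted p = 0.734), Acadvl of 0.26 (adjusted p = 0.0587) and Hsd17b4 of -0.23 (adjusted p = 0.0578), each at over 100 TPM in a group. In low-STRA8 against Stra8-deficient cells 4 oxidation genes rose and 1 fell, with a median of 0.14, whereas limma gave 2 higher and 4 lower, the opposite balance. DESeq2 gave 5 and 1. In this comparison edgeR called 10.1% of all genes higher and 13.9% lower. The 5 edgeR calls became 3 without Stra8-deficient replicate 2, low-STRA8 replicate 1 or high-STRA8 replicate 1, and 9 without low-STRA8 replicate 2. Slc22a5 (0.77, adjusted p = 0.00468) and Cpt2 (0.57, adjusted p = 0.00535) had the smallest adjusted p.

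Of 19 genes of transcription factors that promote or restrain adipocyte formation, 14 were tested. In high-STRA8 against Stra8-deficient cells 0 rose and 5 fell by edgeR, DESeq2 and limma (0 and 7 at an unadjusted p under 0.05), with a median log2 fold change of -0.35. Of all genes, 18.8% were called higher and 18.3% lower in this comparison, 21.4% and 18.3% in high-STRA8 against low-STRA8 cells, and 10.1% and 13.9% in low-STRA8 against Stra8-deficient cells. The 5 calls became 2 without high-STRA8 replicate 1 and 0 without replicate 2. Cebpb, the C/EBP gene that acts before Pparg in fat cells, was at 3.56 to 4.97 TPM in Stra8-deficient cells and 1.05 and 1.02 TPM in high-STRA8 cells, a difference of -1.92 on the log2 scale (adjusted p = 0.00787). It was -0.89 for Stat5a (adjusted p = 0.00591), -0.72 for Zfp467, a zinc finger gene (adjusted p = 0.00655), and -0.52 for Srebf1, the lipogenic factor gene (adjusted p = 0.00854). Against low-STRA8 cells, 0 rose and 5 fell by edgeR and DESeq2 (1 and 6 at an unadjusted p under 0.05, 1 and 4 by limma on log2(TPM + 1)), with a median of -0.080, among them Stat5a (-1.26, adjusted p = 0.00234) and Srebf1 (-0.60, adjusted p = 0.00710). Those 5 calls became 2 without low-STRA8 replicate 2, and 2 and 1 without high-STRA8 replicate 1 and 2. In low-STRA8 against Stra8-deficient cells 1 rose and 2 fell, with a median of -0.21, and 1 was called without Stra8-deficient replicate 1 or 2 or low-STRA8 replicate 1. Klf2 was higher in low-STRA8 cells (0.75, adjusted p = 0.0154) and Klf4 lower (-0.83, adjusted p = 0.0260). Klf4 was 1 of 2 STRA8-bound genes of the 14, where 22.2% of all genes tested were bound.

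The genes whose pattern over the 7 libraries was most like that of Pparg were found among all 12545 genes over 1 TPM in at least 1 library, by the root mean square difference between profiles of log2(TPM + 1) centred on their mean. Among the 6 closest were Majin (0.547), Cd209c (0.557), C2cd6 (0.697), Spdya (0.782) and Rad51ap2 (0.795). Majin encodes a protein that anchors telomeres to the nuclear envelope in meiosis, and it was at 2.87 to 5.63 TPM in Stra8-deficient cells, 30.2 and 13.7 TPM in low-STRA8 cells and 103 and 100.03 TPM in high-STRA8 cells. Like Pparg, these 5 genes were higher in low-STRA8 replicate 1 than in replicate 2, an order that their choice over the same 7 libraries favours. Of these 5, Cd209c alone was not STRA8-bound. The share of 22.2% bound among all genes tested is not a like background, since these 5 were picked for a rise with STRA8. Nothing is read from that difference. Rad51ap2, which went from 0.103 TPM or less to 9.67 and 10.1 TPM, was the one that, like Pparg, was near 0 in Stra8-deficient cells, and it had 3 CNCCTCAG matches in the 2 kb around a start site and scores of 83.8, 67.8 and 26.3. The likeness was a difference of 2.13 for Ppard, 2.29 for Rxrb, 2.45 for Ppara and 2.89 for Rxra.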

How the data were processed

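kallisto 0.43.0 was run by the authors on all transcripts of their annotation, each with an estimated count and a TPM. Gene TPM are sums over the protein-coding transcripts, rescaled by the authors. The deposited normalized count, a signal, is the estimated count divided by DESeq2 factors. The strand setting is not given in the sources used here. The authors called ChIP peaks per library with MACS2 2.1.1.20160309 after Bowtie 1.2.0 alignment to mm10. The deposited summit scores are -log10 p. Input libraries were not used here.

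Here transcripts were joined to genes with GENCODE M21, within 0.2% or 0.003 TPM of the authors' gene value, giving rounded counts for 12505 of 12545 genes over 1 TPM in any library. The libraries held 25049625 to 30015072 counts over all transcripts, of which 90.3% to 93.1% lay on joined genes. One fit of all 7 libraries in edgeR 4.0.16 (TMM, robust quasi-likelihood F test, R 4.3.3) gave 3 contrasts, with Benjamini-Hochberg adjustment over all genes and a threshold of 0.05. DESeq2 1.42.0, limma 3.58.1 on log2(TPM + 1 or 0.1), other filters, a replicate block and leaving out each library were alternatives, and the code was tested on simulated data. Python 3.11.15 was used for the remainder. Replicates of a group differed by more than sampling noise (chi-square per degree of freedom 9.07 to 37.4).

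The members and lists were chosen with earlier results of these data known. Named were all members, up to 4 genes of each list with the smallest adjusted p in high-STRA8 against Stra8-deficient cells and up to 2 in each other comparison, list genes with a mean over 100 TPM in a group, the 6 genes most like Pparg, Stra8, and Slc39a7, which shares a promoter with a member; genes named otherwise are said to be. Some genes and sequences that this rule selects are not reported here. No protein sequence is printed. Samples were grouped by the labels.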

Additional observations from a re-analysis of the deposited data

How the results depend on the processing

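Of 156 values of the tested members under an alternative, 129 kept their direction and side of the threshold. The number of members called besides Pparg was 1 of 4 in high-STRA8 against Stra8-deficient cells and 2 with limma at either pseudocount, which also called Ppara; it was 1 whichever library was left out. Against low-STRA8 cells it was 2, and 1 with DESeq2, DESeq2's size factors, no filter or the replicate block, and 1 to 2 when a library was left out. Between low-STRA8 and Stra8-deficient cells it was 1, and 0 with DESeq2's size factors, no filter or the replicate block, and 0 to 1 when a library was left out. The counts that went from 2 to 1 lost Ppard and those that went to 0 lost Rxra, and the cause was not tested. The direction of the small Ppara difference between low-STRA8 and Stra8-deficient cells (-0.021) turned with the replicate block (0.069) and without Stra8-deficient replicate 2 (0.026), Stra8-deficient replicate 3 (0.081) or low-STRA8 replicate 1 (0.11), and that of Rxrb (-0.020) without Stra8-deficient replicate 2 (0.025) or low-STRA8 replicate 1 (0.087). Over all left-out libraries these ran from -0.17 to 0.11 for Ppara and from -0.14 to 0.087 for Rxrb. TPM-based fits moved the median of all genes to -0.15 in that comparison and 0.11 in high-STRA8 against low-STRA8 cells, at a pseudocount of 1, and the share of calls that were higher from 42.2% to 15.5%, from 53.8% to 63.6% and, against Stra8-deficient cells, from 50.8% to 40.5%.

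Same-numbered libraries of different groups did not deviate together (correlations -0.167 to -0.030). In a group of 2 libraries the deviations mirror each other, so this cannot show whether the numbers pair samples. The block lowered the calls over all genes from 4642 to 3392, 4963 to 4481 and 3000 to 2568. Leaving out a library lowered them to as few as 2089 and 1771 (both without high-STRA8 replicate 2) and 1698 (without Stra8-deficient replicate 2). The number of STRA8-bound members, 2, was 3 with a summit in at least 1 FLAG/FLAG library, which adds Ppard, and 2 under every other alternative. Pparg kept 5 of its 8 motif matches in a window of 1 kb in total and 1 in 500 bp, since the others lie farther downstream. Over all alternatives, the list counts for high-STRA8 against Stra8-deficient cells ran from 4 to 11 for storage genes, 9 to 17 for oxidation genes, 3 to 10 for coregulators, 1 to 4 for RXR partners, 4 to 11 for other nuclear receptors and 0 to 6 for adipogenic factors, and the lowest counts came from leaving out a high-STRA8 library, which leaves 1 in that group, assumed to vary like the others. For high-STRA8 against low-STRA8 cells they ran from 3 to 9, 5 to 18, 6 to 14, 0 to 2, 1 to 8 and 1 to 6, and for low-STRA8 against Stra8-deficient cells from 1 to 4, 3 to 9, 8 to 16, 2 to 3, 3 to 7 and 1 to 4. Depth limits Pparg in Stra8-deficient cells and Rxrg.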
